A study of Rattus norvegicus with 24 samples.

Results

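Nuclear oxidative phosphorylation genes encode the subunits of respiratory chain complexes I to IV and of ATP synthase, complex V, that are made in the cytosol and imported into mitochondria. They were chosen by symbol: every gene whose name starts with Nduf, Uqcr, Atp5, Sdha, Sdhb, Sdhc, Sdhd, Cox4, Cox5, Cox6, Cox7 or Cox8, leaving out the assembly factors named Ndufaf and Sdhaf. This gave 81 of the 17303 genes in the table. By symbol, 36 were assigned to complex I, 4 to complex II, 8 to complex III, 16 to complex IV and 17 to complex V. Ndufa4 is counted in complex I by this rule, and counting it in complex IV was run as an alternative. The prefixes also pick up Atp5s, Atp5sl, Cox7a2l, Ndufa4l2, Ndufa10l1 and Cox6c-ps1, which are not core structural subunits. They are counted in the complexes and, where measured, in the complex medians, and are named where they are given a value of their own. Genes encoded by mitochondrial DNA were not analysed here.

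The libraries are poly(A)-selected, strand-specific RNA-seq of whole tissue from the nucleus accumbens (NAc) and the dorsolateral striatum (DLS) of male Sprague-Dawley rats at postnatal day 90. Dams received lipopolysaccharide (LPS), a bacterial cell wall component that activates innate immunity, or, in controls, saline on each of gestational days 15 and 16, and the sons were then exposed to unpredictable stress or only handled in adolescence. Each region had 4 groups of 3 libraries: LPS stressed, LPS unstressed, Saline stressed and, as controls, Saline unstressed. All groups share the strain, the sex, the age and an injection of the dam, and the 3 replicates of a group carry no label of animal or litter, so p-values measure only the spread between these samples. Replicates are numbered in deposit order, and the numbers pair nothing.

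Oxidative phosphorylation turns the energy of NADH and succinate into ATP. Complexes I and II pass electrons to ubiquinone, complex III passes them to cytochrome c, complex IV passes them to oxygen, and complex V uses the proton gradient that complexes I, III and IV build up. Neurons depend on this pathway to restore ion gradients after firing, and the subunits of one complex are needed in fixed proportions. Nuclear respiratory factor 1, ETS-family proteins of the GABP type and YY1 are known to bind many promoters of these genes.

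The deposited values carry FPKM headers but have lost their decimal separator, so that each value is known only up to a power of 10. Sdha in the DLS, for example, is listed as 148214 in Saline stressed library 1 and as 16599 in library 2. Differences between libraries were therefore recovered gene by gene from the leading digits, and a gene was used where all its libraries fell within 0.5 decades (a 3.16-fold range). Levels of different genes therefore could not be compared, and a change larger than that range is left out or can appear with the opposite sign. All values below are log2 values relative to the mean of the 3 Saline unstressed libraries of the same region, unless stated otherwise.

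Of the 81 genes, 77 had a value above the lowest listed value of 1 in all 24 libraries. Atp5f1 and the testis isoform Cox8c were listed as 1 in all 24, Cox6c-ps1 in 23 and Ndufa10l1 in 17. Within the 0.5-decade range were 74 members in the NAc and 65 in the DLS. Ndufb7 and Cox6b2 were outside it in both regions, Cox6a2 in the NAc, and Atp5e, Atp5i, Atp5l, Cox4i2, Cox8b, Ndufa2, Ndufa6, Ndufs6, Ndufs7 and Ndufv3 in the DLS. Genes left out in this way are those that varied most, so counts over the genes kept are not counts over all members. Atp5j, Atp5j2, Cox7a2, Cox7b, Cox7c, Ndufa10, Ndufa10l1, Ndufa2, Ndufs3 and Uqcrb share their listed locus with another gene, and their values are uncertain.

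Sequencing depth is not given in the sources used here and cannot be had from these values. Between 3838 and 4463 genes were listed as 1 in a library. All 10 projection neuron markers in the table, Ppp1r1b, Drd2 and Penk among them, were above 1 in all 24 libraries. The same held for 10 of 10 microglia, 8 of 8 oligodendrocyte, 7 of 7 parvalbumin interneuron, 9 of 9 vessel, 8 of 9 general neuron and 9 of 10 astrocyte markers. The neuronal enolase Eno2, and 2 of 5 choroid plexus and ependyma markers, Ttr and Kl, were listed as 1 in some libraries, and the astrocyte transporter Slc1a3 has a blank cell. The median over all genes lay between -0.03 and 0.06 in every library.

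The members moved as one block from library to library. In the DLS, the median member stood at 0.51, 0.56 and -0.21 in the LPS stressed libraries, 0.51, 0.67 and -0.05 in the LPS unstressed libraries, 0.88, 0.24 and 0.29 in the Saline stressed libraries, and -0.13, 0.29 and -0.14 in the Saline unstressed libraries. In each DLS group that received LPS, libraries 1 and 2 were above all controls and library 3 was not, so the groups overlapped. In the Saline stressed group, library 1 was far above the controls and the others were level with the highest control. In the NAc, the median member stood at -0.17, -0.10 and -0.25 in LPS stressed, -0.07, -0.29 and -0.21 in LPS unstressed, -0.32, -0.28 and 0.47 in Saline stressed, and 0.35, 0.02 and -0.31 in Saline unstressed libraries. There the 6 LPS libraries lay inside the control range, and Saline stressed library 3 was the highest of the 12.

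The distance between the highest and the lowest library was 0.79 in the NAc and 1.09 in the DLS. The pooled SD of the library median within groups was 0.28 in the NAc and 0.36 in the DLS. The largest median difference between an exposed group and its controls, given below, was 0.48.

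**Figure D1:**
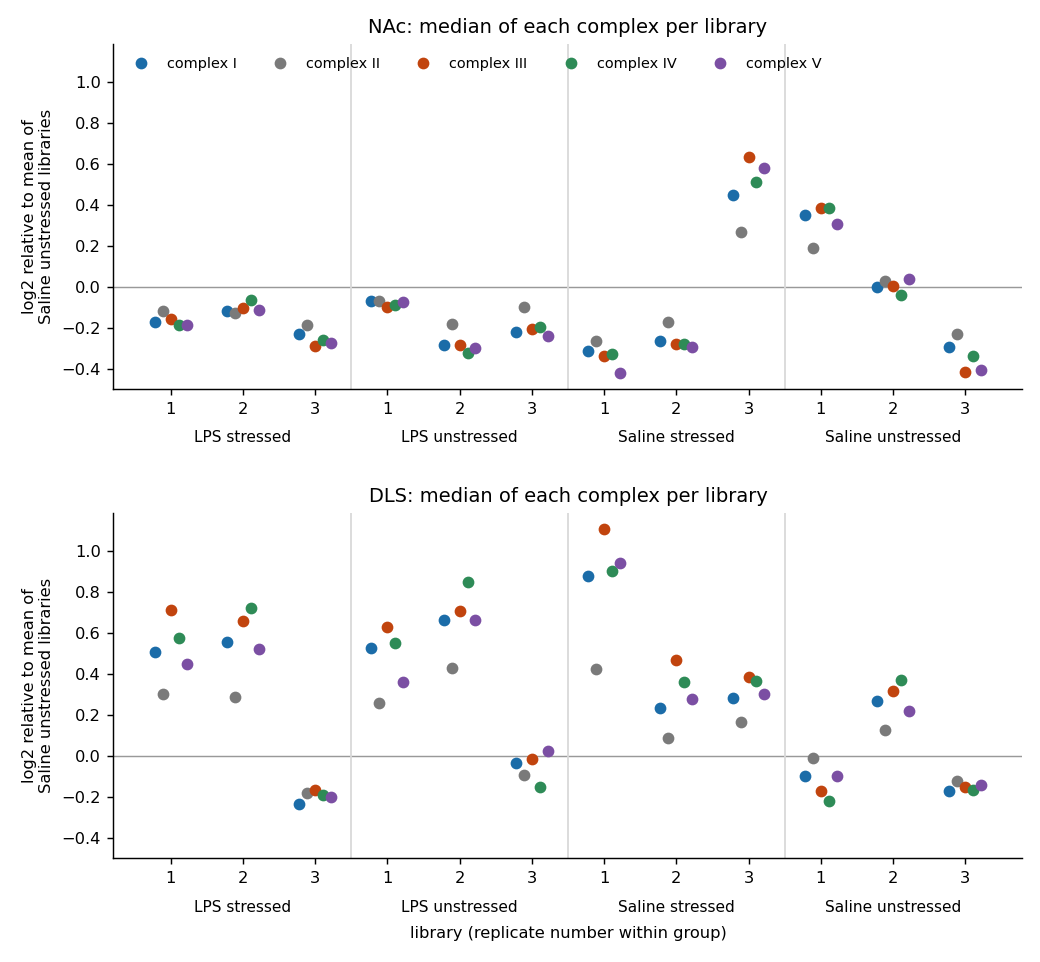
Median log2 value of each complex (coloured points) in every library, NAc above DLS, relative to the Saline unstressed mean of the region, with groups from LPS stressed to Saline unstressed. The 5 complexes follow each other from library to library, and complex II, the lowest of the 5 in DLS Saline stressed library 1 at 0.42, has the smallest swings.

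All 5 complexes took part, with different amplitude. In the highest DLS library, Saline stressed 1, the complex medians were 0.88 for complex I, 0.42 for complex II, 1.11 for complex III, 0.91 for complex IV and 0.94 for complex V. In the lowest, LPS stressed 3, they were -0.23, -0.18, -0.16, -0.19 and -0.20 in the same order. In NAc Saline stressed library 3 they were 0.45, 0.27, 0.64, 0.51 and 0.58. Complex II, succinate dehydrogenase, is the only one of the 5 that is also a citrate cycle enzyme and the only one with no subunit encoded by mitochondrial DNA.

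**Figure D2:**
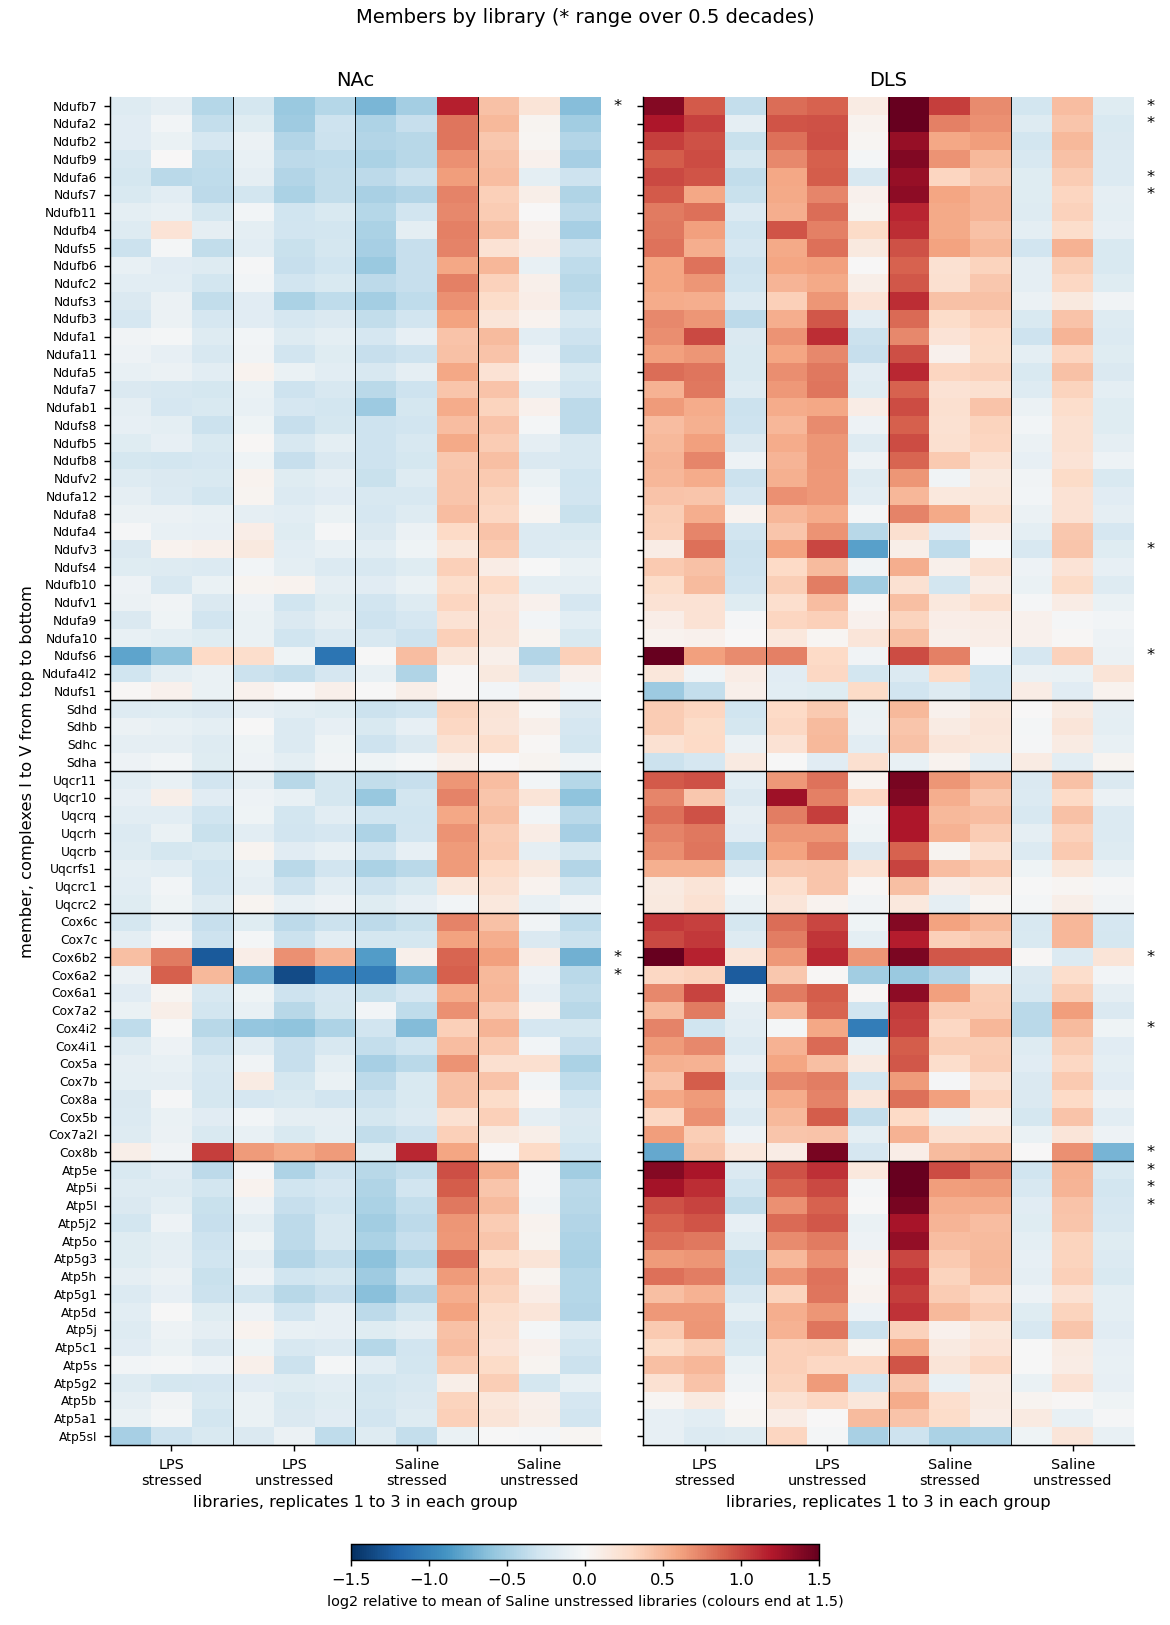
Log2 values of measured members (rows, by complex) in each library (columns, by group), NAc left of DLS, relative to the Saline unstressed mean of the region. Colours end at 1.5 and asterisks mark genes outside the 0.5-decade range. Whole columns share a colour, and Ndufs1 and Sdha stand out as rows that do not follow their columns.

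To describe how far each gene took part, its values over the 12 libraries of a region were regressed on the median of the other members. A slope of 1 means that the gene moved as much as the median member, and a slope of 0 that it did not move with it. Over the 77 measured members the median slope was 1.03 in the NAc and 1.04 in the DLS. These slopes describe shared movement between libraries and carry no test.

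By complex, the median slope was 1.00 in the NAc and 1.04 in the DLS for complex I, 0.65 and 0.59 for complex II, 1.22 and 1.26 for complex III, 1.16 and 1.11 for complex IV, and 1.19 and 1.07 for complex V. Complex III had the steepest median in both regions and complex II the flattest. Among the genes within the 0.5-decade range, the slope exceeded 0.5 for 90.5% of members in the NAc and 83.1% in the DLS, against 20.8% and 19.9% of all genes. Slopes of the 64 genes in range in both regions, which share no library between regions, had a Spearman rho of 0.80 across genes. Genes are not independent replicates.

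Genes with low or negative slopes included some catalytic or core proteins of several complexes. Ndufs1, the iron-sulfur protein that is the largest complex I subunit, had a slope of -0.01 in the NAc and -0.50 in the DLS. Sdha, the flavoprotein of complex II that oxidises succinate, had 0.20 and -0.36. Uqcrc2, a core protein of complex III, had 0.25 in both regions, and its partner Uqcrc1 had 0.67 in the NAc and 0.42 in the DLS. Other core proteins followed the block, with 1.10 in the NAc and 1.03 in the DLS for Ndufs8 of complex I. Uqcrfs1 of complex III had 1.28 and 0.86. Among genes in range, the complex I core had a median slope of 0.91 in the NAc and 0.75 in the DLS. For the accessory subunits of complex I it was 1.00 and 1.08. These DLS medians leave out the core subunit Ndufs7 (1.31), which was outside the range there. They also leave out the accessory subunits Ndufb7 (1.88), Ndufa2 (1.64), Ndufa6 (1.55), Ndufv3 (1.04) and Ndufs6 (0.84). The catalytic F1 subunits followed the block in the NAc and less so in the DLS, with 0.76 and -0.02 for Atp5a1 (alpha) and 0.71 and 0.34 for Atp5b (beta). Among members that are not core structural subunits, Atp5sl had 0.23 and 0.10, Ndufa4l2, a paralogue of Ndufa4, had 0.36 and -0.03, Atp5s had 0.78 and 0.70, and Cox7a2l had 0.76 and 0.69. The lowest NAc slopes also included Cox8b (-0.09) and the accessory subunit Ndufs6 (0.10), both outside the 0.5-decade range in the DLS.

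The steepest slopes in the DLS were those of Atp5e, Ndufb7 and Atp5i. Atp5e, the epsilon subunit of F1, had 1.71 in the NAc and 1.97 in the DLS. Ndufb7, an accessory subunit of the complex I membrane arm, had 2.02 and 1.88, and Atp5i, the e subunit of ATP synthase, had 1.47 and 1.80. The DLS slopes of all 3 and the NAc slope of Ndufb7 come from genes outside the 0.5-decade range, read at the widest gap of their digits. Among genes in range in both regions, Cox6c and Ndufb2 had the steepest DLS slopes, and Ndufb9 was also steep, with 1.39, 1.46 and 1.46 in the NAc and 1.62, 1.57 and 1.52 in the DLS. Slopes were lower for longer listed loci, with a Spearman rho of -0.29 in the NAc and -0.32 in the DLS over 64 genes, and its part in the slopes was not tested.

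**Figure D3:**
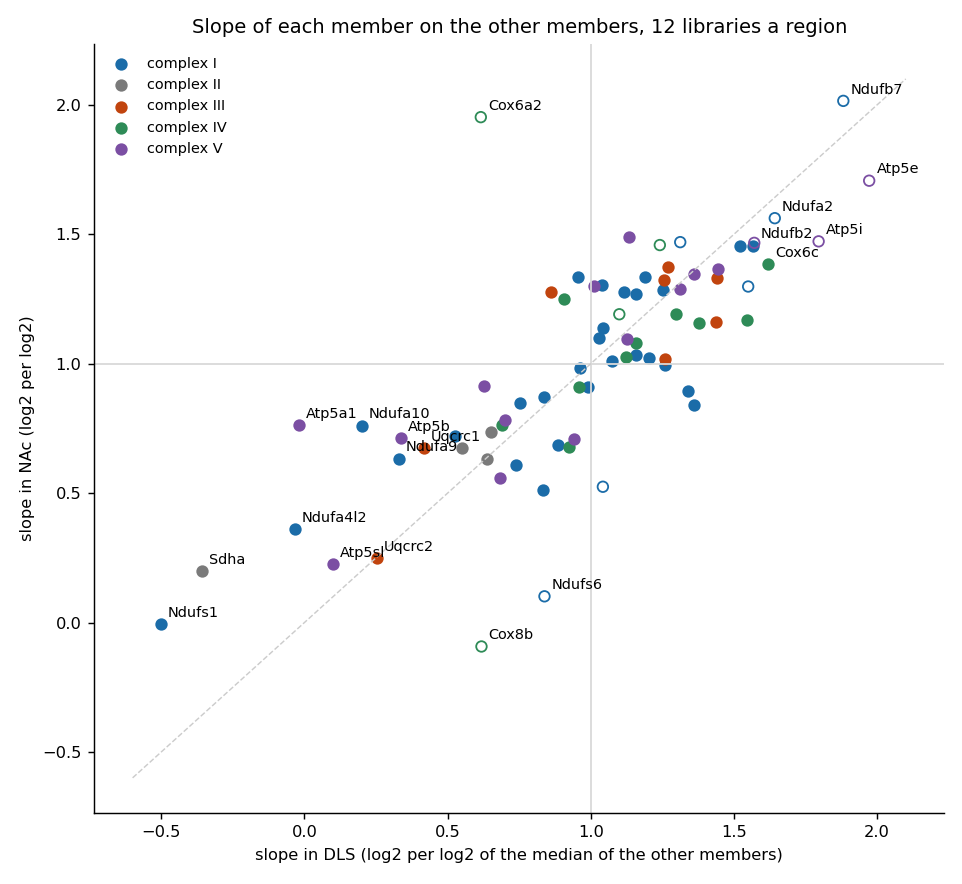
Slopes of members on the median of the other members, with the NAc on the vertical and the DLS on the horizontal axis, coloured by complex. Open points are genes outside the 0.5-decade range in a region. Most genes lie between 0.5 and 1.5 on both axes, with Ndufs1 and Sdha at the low end and Atp5e and Ndufb7 at the high end.

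Ndufs1 and Ndufb9 of complex I are shown by library as examples of a low and a steep slope. They were picked by slopes from these same libraries, so a contrast between them was given in advance. Ndufs1 in the DLS stood at -0.55, -0.36 and 0.08 in LPS stressed, -0.16, -0.19 and 0.28 in LPS unstressed, -0.29, -0.20 and -0.29 in Saline stressed, and 0.11, -0.17 and 0.06 in Saline unstressed libraries. It was low where the block was high, and its highest value was in LPS unstressed library 3, where the median member stood at -0.05. Ndufb9, an accessory subunit, stood at 0.91, 0.98 and -0.26 in LPS stressed, 0.72, 0.90 and -0.03 in LPS unstressed, 1.39, 0.67 and 0.49 in Saline stressed, and -0.24, 0.44 and -0.21 in Saline unstressed libraries. Its order of libraries was close to that of the median member.

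Promoters are shown for the 3 genes with the steepest and the 2 with the lowest slope in the DLS, because these genes mark both ends of the movement. Each window runs from 250 bases before to 50 bases after the start of the gene in RefSeq's GRCr8 annotation, 5' to 3' on the gene's strand. Capitals mark matches, on either strand, to GCATGCGC (the half-site pair of nuclear respiratory factor 1), CCGGAAG (ETS) or AAGATGG (YY1). The windows are Ndufb7 at chr19:41477242-41477541 (minus strand), Atp5e, listed as Atp5f1e, at chr3:183680123-183680422 (minus), Atp5i, listed as Atp5me, at chr14:1464610-1464909 (plus), Ndufs1 at chr9:72073556-72073855 (minus) and Sdha at chr1:30764303-30764602 (plus).
Ndufb7: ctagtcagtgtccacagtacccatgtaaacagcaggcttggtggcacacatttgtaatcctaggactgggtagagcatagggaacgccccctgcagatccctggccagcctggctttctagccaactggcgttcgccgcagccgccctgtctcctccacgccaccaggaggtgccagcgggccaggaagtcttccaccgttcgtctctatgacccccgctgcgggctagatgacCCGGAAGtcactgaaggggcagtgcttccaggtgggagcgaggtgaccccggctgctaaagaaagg
Atp5e: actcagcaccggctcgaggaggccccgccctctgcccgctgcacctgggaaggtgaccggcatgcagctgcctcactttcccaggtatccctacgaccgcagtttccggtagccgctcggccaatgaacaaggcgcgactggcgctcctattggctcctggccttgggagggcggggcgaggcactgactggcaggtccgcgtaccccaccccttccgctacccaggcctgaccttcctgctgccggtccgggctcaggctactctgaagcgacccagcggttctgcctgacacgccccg
Atp5i: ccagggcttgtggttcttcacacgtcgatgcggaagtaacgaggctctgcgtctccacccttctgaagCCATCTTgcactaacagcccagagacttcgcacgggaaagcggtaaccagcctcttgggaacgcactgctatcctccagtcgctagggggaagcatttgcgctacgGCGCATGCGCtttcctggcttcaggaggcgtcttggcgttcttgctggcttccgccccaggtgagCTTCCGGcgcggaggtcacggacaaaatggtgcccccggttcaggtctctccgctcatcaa
Ndufs1: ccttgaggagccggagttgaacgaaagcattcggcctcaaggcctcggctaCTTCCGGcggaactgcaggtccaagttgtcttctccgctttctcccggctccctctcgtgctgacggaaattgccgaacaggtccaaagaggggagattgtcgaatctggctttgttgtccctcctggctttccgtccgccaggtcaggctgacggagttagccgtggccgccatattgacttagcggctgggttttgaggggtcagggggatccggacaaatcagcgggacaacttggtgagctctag
Sdha: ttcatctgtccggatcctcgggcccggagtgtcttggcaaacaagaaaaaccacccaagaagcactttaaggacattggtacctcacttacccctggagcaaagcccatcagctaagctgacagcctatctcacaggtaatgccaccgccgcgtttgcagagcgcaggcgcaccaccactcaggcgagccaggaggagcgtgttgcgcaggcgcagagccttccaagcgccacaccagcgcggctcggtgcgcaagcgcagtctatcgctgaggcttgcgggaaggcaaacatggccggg
The Atp5i window holds an ETS match 11 bases before the start, a pair of overlapping respiratory factor matches on opposite strands at 74 and 76 bases, and a YY1 match at 182 bases. Ndufb7 has an ETS match at 16 bases and Ndufs1 one at 199 bases. Atp5e and Sdha have none of these letters in the window.

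Over all members, 69 of 81 matched a RefSeq promoter, 54 by symbol and 15 by synonym. The respiratory factor letters were in 9 of the 69 windows (13.0%), against 2.47% of all 33469 promoters. ETS letters were in 19 (27.5%, against 8.75%), YY1 letters in 17 (24.6%, against 7.01%), and TATAAA in 6 (8.70%, against 14.2%). The median GC content was 56.3% in member windows and 51.7% in all. At least 1 of the first 3 motifs was in 33 windows (47.8%, against 16.8%), and 2 or more were in 10 (14.5%, against 1.38%). The median DLS slope was 1.28 for the 8 measured genes with the respiratory factor letters and 1.01 for the 59 without, 1.16 and 1.00 for ETS, and 0.96 and 1.04 for YY1. A match is a run of letters and not a measured binding site.

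The first question the design asks is whether adolescent stress alone altered these genes. In the DLS, the median difference between Saline stressed and Saline unstressed rats was 0.48 over the 65 members in range (a 1.40-fold difference), against 0.02 over all 9275 genes. Of the 65 members, 60 were higher in value and 5 lower. By complex, the medians were 0.48 for complex I (29 genes), 0.24 for complex II (4), 0.66 for complex III (8), 0.55 for complex IV (11) and 0.48 for complex V (13). By limma's moderated test with Benjamini-Hochberg adjustment over all genes, 0 members passed an adjusted p of 0.05, as did 0% of all genes, and the smallest adjusted p among members was 0.294. At an unadjusted p under 0.05 there were 21 members of 65, against 14.6% of all genes.

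All 3 Saline stressed libraries lay above all 3 controls for 32 of 65 members, against 14.9% of all genes, and below them for 2, Atp5sl and Ndufs1, against 13.7%. The median rested in part on 1 library: without Saline stressed library 1 it was 0.28. Because bulk tissue was used, fewer cells of a type and less RNA per cell cannot be told apart in any of these values.

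Among the electron-entry subunits, the complex I core had a median difference of 0.29 over 6 genes and the accessory subunits 0.49 over 23. Ndufs3, a core subunit, was 0.66 higher (SE 0.24, adjusted p = 0.294), with 1.10, 0.44 and 0.44 in Saline stressed against -0.09, 0.15 and -0.06 in Saline unstressed libraries. The groups did not overlap for it. Among accessory subunits, Ndufb9 differed by 0.85 (SE 0.36, adjusted p = 0.325) and Ndufb2 by 0.84 (SE 0.38, adjusted p = 0.337). Ndufs1 differed by -0.26 (SE 0.18, adjusted p = 0.491). In complex II, Sdha, with -0.12, 0.05 and -0.14 in Saline stressed against 0.13, -0.16 and 0.04 in Saline unstressed libraries, differed by -0.07 (SE 0.16, adjusted p = 0.855). Sdhb, its iron-sulfur partner, had 0.41, 0.12 and 0.18 in Saline stressed against -0.03, 0.18 and -0.15 in Saline unstressed libraries. The groups overlapped for both genes.

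In complex III, Uqcr11, a small subunit near the Rieske protein, had the largest difference of the 65 members in range, 0.87 (SE 0.34, adjusted p = 0.308), with 1.43, 0.66 and 0.51 in Saline stressed against -0.22, 0.44 and -0.22 in Saline unstressed libraries. Uqcrfs1, the Rieske iron-sulfur protein, differed by 0.62 (SE 0.22, adjusted p = 0.294), with 1.01, 0.46 and 0.39 against -0.06, 0.17 and -0.11. Neither gene's groups overlapped. The core protein Uqcrc2 differed by 0.01, with 0.15, -0.14 and 0.02 against -0.03, 0.08 and -0.06.

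In complex IV, Cox6c differed by 0.83 (SE 0.39, adjusted p = 0.352) and the muscle isoform Cox6a2 by -0.37 (SE 0.37, adjusted p = 0.631). Cox4i1, the common isoform of a subunit that contacts the catalytic core, had 0.91, 0.37 and 0.37 in Saline stressed against -0.20, 0.36 and -0.17 in Saline unstressed libraries. The lowest Cox4i1 values of the stressed group and the highest control were almost level. In complex V, the F1 head had a median of 0.31 over 4 genes, and Atp5o, which links the head to the stalk, had the largest difference of the 13 genes in range at 0.75. Atp5sl, whose human counterpart is an assembly factor of complex I, had the lowest of them, -0.42 (SE 0.18, adjusted p = 0.325), with -0.32, -0.47 and -0.47 against -0.06, 0.18 and -0.11.

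Prenatal LPS alone was compared in the same way, with the same control libraries. The median difference between LPS unstressed and Saline unstressed DLS was 0.38 over the 65 members (1.30-fold), against 0.02 over all genes, and 61 of 65 were higher in value. Complex medians were 0.38, 0.19, 0.40, 0.40 and 0.33 for complexes I to V. By limma 0 members passed the adjusted threshold, as did 0% of all genes, and the smallest adjusted p was 0.967. At an unadjusted p under 0.05 there were 2 members, against 3.25% of all genes. The 3 LPS unstressed libraries lay above all controls for 7 members, Atp5b, Ndufa9, Atp5s, Uqcrfs1, Ndufs3, Ndufb4 and Uqcr10, against 5.33% of all genes, and below them for 0, against 5.02%.

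Uqcr10, a small complex III subunit, had 1.27, 0.76 and 0.31 in LPS unstressed against -0.21, 0.29 and -0.08 in Saline unstressed libraries, a difference of 0.78 (SE 0.32, adjusted p = 0.967). Ndufb4 differed by 0.67 (SE 0.28), Ndufb2 by 0.61 and Cox6c by 0.59, all with the same adjusted p. Atp5b, the catalytic beta subunit of F1, had 0.22, 0.30 and 0.17 against 0.04, 0.02 and -0.06, a shift small in size with libraries close together. The median over members was 0.21 without LPS unstressed library 2 and 0.59 without LPS unstressed library 3.

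In rats with both exposures, the median difference between LPS stressed and Saline unstressed DLS was 0.31 (1.24-fold), against 0.01 over all genes, with 60 of 65 members higher in value. The complex medians were 0.29, 0.13, 0.34, 0.36 and 0.27 for complexes I to V. Again 0 members and 0% of all genes passed the adjusted threshold, and the smallest adjusted p was 0.908. At an unadjusted p under 0.05 there were 0 members, against 3.27% of all genes. The 3 LPS stressed libraries lay above all controls for 0 members, against 3.99%, and below for 1, Atp5sl, against 3.49%.

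Cox7c had the largest difference of the 65 members in range, 0.62 (SE 0.39, adjusted p = 0.908), with 1.00, 1.06 and -0.19 in LPS stressed against -0.23, 0.50 and -0.27 in Saline unstressed libraries. Its group was split, with 2 libraries above and 1 within the controls. Ndufs1 had the lowest, -0.28 (SE 0.18), followed by -0.20 for Cox6a2 and -0.18 for Atp5sl. The median over members depended on single libraries: it was 0.18 without LPS stressed library 1, 0.15 without library 2, 0.55 without library 3 and 0.47 without Saline unstressed library 2.

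Averaged over the other factor, the DLS stress main effect had a median of 0.21 over members (0.08 to 0.33 with 1 library left out), and 0 passed an unadjusted p under 0.05, against 7.29% of all genes. The LPS main effect had a median of 0.09 (0.03 to 0.24 with 1 library left out), and 0 passed, against 1.61%. The LPS by stress interaction, the difference between the stress effect in LPS and in Saline sons, had a median of -0.53, with 61 of 65 members below 0. For it 6 members passed an unadjusted p under 0.05, against 5.19% of all genes, and Uqcr10 had the most negative value, -1.25. Each of these had 0 calls after adjustment among members, and 0% among all genes. Without LPS stressed library 3 the median interaction was -0.28.

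When limma weighted libraries by their agreement with their group (array weights), calls appeared in the DLS. There were 25 of 65 members for stress alone, all higher, against 12.8% of all genes. For LPS alone there were 54, all higher, against 26.6%, and for both exposures 48, of which 47 were higher, against 27%. With these weights the member median was 0.61 for LPS alone, 0.61 for both exposures and 0.38 for the LPS main effect, which had 0 calls, against 0.38, 0.31 and 0.09 unweighted. The lowest DLS weights went to LPS stressed library 3 (0.23), LPS unstressed library 3 (0.34) and Saline stressed library 1 (0.51). The first 2 of these are the libraries of the LPS groups in which the median member stood at -0.21 and -0.05. Among the controls, which all these comparisons share, library 2 had a weight of 0.61, against 2.55 and 3.59 for libraries 1 and 3. The median member stood at 0.29 in control library 2 and at -0.13 and -0.14 in the others.

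In the NAc the differences were near 0 or below it. Saline stressed minus Saline unstressed had a median of -0.04 over 74 members, and its sign changed without Saline unstressed library 1 (0.13), Saline stressed library 1 (0.12) or Saline stressed library 2 (0.08), while it was -0.20 without Saline unstressed library 3 and -0.30 without Saline stressed library 3. By limma 0 members passed the adjusted threshold (0% of all genes), and 0 an unadjusted p under 0.05, against 1.29% of all genes. All 3 stressed libraries were above the controls for 0 members, against 2.11%, and below for 1, Atp5sl, against 1.38%.

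LPS unstressed minus Saline unstressed NAc had a median of -0.19 (0.88-fold), with 72 of 74 members lower in value. The complex medians lay close together, -0.20, -0.11, -0.19, -0.20 and -0.19 for complexes I to V. By limma 0 members passed the adjusted threshold (0% of all genes), and 1, Ndufa4l2, an unadjusted p under 0.05, against 3.06%. The LPS unstressed libraries lay above all controls for 1 member, Cox8b, against 4.84%, and below for 3, Cox4i2, Ndufa4l2 and Atp5sl, against 4.51%. Without Saline unstressed library 1 the median was -0.03, and without Saline unstressed library 3 it was -0.34.

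With both exposures the NAc median was -0.18 (0.88-fold), and 73 of 74 members were lower in value. The complex medians were -0.18, -0.14, -0.19, -0.17 and -0.21. By limma 0 members passed the adjusted threshold (0% of all genes), and 1, Atp5sl, an unadjusted p under 0.05, against 2.08%. The LPS stressed libraries lay above all controls for 0 members, against 3.41%, and below for 3, Atp5sl, Ndufb8 and Ndufs4, against 3.78%. The median was -0.02 without Saline unstressed library 1 and -0.33 without Saline unstressed library 3.

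Atp5sl, which is no ATP synthase subunit, stood at -0.50, -0.31 and -0.23 in LPS stressed, -0.21, -0.09 and -0.38 in LPS unstressed, -0.20, -0.35 and -0.10 in Saline stressed, and -0.01, -0.01 and 0.02 in Saline unstressed NAc. All 9 libraries of the exposed groups lay below its 3 controls. With both exposures it differed by -0.35 (SE 0.11, unadjusted p = 0.0103, adjusted p = 0.962).

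The NAc main effects and interaction had 0 adjusted calls among members and 0% among all genes. At an unadjusted p under 0.05, the stress main effect gave 0 members, against 0.895% of all genes, the LPS main effect 1, against 3.55%, and the interaction 0, against 1.78%. Their medians were -0.01, -0.16 and 0.06. With 1 library left out, the stress main effect ranged from -0.16 to 0.07 and the interaction from -0.09 to 0.33, so neither kept its sign. The LPS main effect was -0.02 without Saline stressed library 3, -0.08 without Saline unstressed library 1, -0.25 without Saline unstressed library 3 and -0.24 without Saline stressed library 1. With array weights 3 members passed the adjusted threshold for LPS alone, all lower, against 5.97% of all genes, and the lowest weight, 0.088, went to Saline stressed library 3. Weighted medians were -0.28 for stress alone, -0.13 for the stress main effect, -0.05 for the LPS main effect and 0.30 for the interaction. The weights of the NAc fit and of the fit of all 24 libraries stopped before limma's iterations converged, those of the DLS fit did not, and counts from the first 2 are provisional.

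Isoforms with restricted tissue expression were mixed. Cox4i2 had slopes of 1.19 in the NAc and 1.10 in the DLS, near the 1.08 and 1.16 of its common counterpart Cox4i1. The DLS slope of Cox4i2 comes from outside the 0.5-decade range. Its libraries scattered widely around that slope, with a residual SD of 0.44, against 0.07 for Cox4i1. Cox8b had a slope of -0.09 in the NAc, against 0.91 for Cox8a. In the NAc, Cox8b, the heart and skeletal muscle isoform of subunit VIII, had 0.09, -0.05 and 1.03 in LPS stressed, 0.64, 0.57 and 0.63 in LPS unstressed, -0.18, 1.13 and 0.59 in Saline stressed, and 0.00, 0.29 and -0.30 in Saline unstressed libraries. The 3 LPS unstressed libraries lay close together above the controls, with a difference of 0.61 (SE 0.33), while the other groups were spread wide. Cox4i2, the isoform of subunit IV known from lung, had -0.38, -0.01 and -0.41 in LPS stressed, -0.58, -0.60 and -0.46 in LPS unstressed, -0.29, -0.65 and 0.36 in Saline stressed, and 0.51, -0.25 and -0.26 in Saline unstressed libraries. Its LPS unstressed group differed by -0.55 (SE 0.26, adjusted p = 0.935).

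The common isoform Cox8a, with -0.22, -0.02 and -0.26 in LPS stressed, -0.25, -0.23 and -0.28 in LPS unstressed, -0.32, -0.23 and 0.44 in Saline stressed, and 0.28, 0.02 and -0.30 in Saline unstressed NAc, kept to the block. Cox6a2, known from muscle and, in mice, from parvalbumin interneurons, had 0.31, 0.33 and -1.25 in LPS stressed, 0.40, 0.01 and -0.53 in LPS unstressed, -0.55, -0.44 and -0.11 in Saline stressed, and -0.21, 0.26 and -0.04 in Saline unstressed DLS. Its libraries of 1 group differed by more than the groups did.

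The 3 genes for the c ring of ATP synthase, which encode the same mature protein, had unlike amplitudes. In DLS Saline stressed library 1, Atp5g1 stood at 1.04, Atp5g3 at 1.00 and Atp5g2 at 0.41. For stress alone, Atp5g2 in the DLS had 0.41, -0.11 and 0.12 in Saline stressed against -0.10, 0.22 and -0.13 in Saline unstressed libraries, and Atp5g1 had 1.04, 0.38 and 0.31 against -0.08, 0.22 and -0.14. The groups overlapped for Atp5g2 and did not for Atp5g1.

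Whether an exposure acted differently in the 2 regions was tested over the 33 members in range in all 24 libraries. The NAc minus DLS difference of the effect had a median of -0.34 for stress alone, -0.40 for LPS alone and -0.33 for both exposures. For stress alone it was -0.22 without NAc Saline stressed library 1 and -0.52 without NAc Saline stressed library 3, and for both exposures -0.19 without NAc Saline unstressed library 1 and -0.52 without DLS LPS stressed library 3. By limma 0 members passed the adjusted threshold in each, as did 0% of all genes. At an unadjusted p under 0.05 there were 0 members for stress alone, against 5.95% of all genes, 3 for LPS alone, against 4.51%, and 0 for both exposures, against 3.17%. With array weights, which had not converged, there were 23 calls for stress alone (27.3% of all genes), 26 for LPS alone (37.9%), 28 for both exposures (30.1%), 4 for the stress main effect (7.43%) and 10 for the interaction (11.7%). The weighted medians were -0.55 for stress alone, -0.54 for LPS alone and -0.57 for both exposures.

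Counted by library, with each region relative to its own controls, 25 of 64 members had all 3 NAc libraries below and all 3 DLS libraries above the control mean after LPS alone, against 7.15% of all genes. The count was 0 for stress alone, against 0.853%, and 3 for both exposures, against 3.36%. Members moved together from library to library, so they are not separate observations, and these counts were not tested. In DLS LPS unstressed library 3 the median member stood at -0.05, close to the control mean.

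Differences between the regions were the only ones with calls in the unweighted fits. Over the 33 members in range in all 24 libraries, 27 were lower in the NAc than in the DLS at an adjusted p under 0.05, against 39.7% of all genes, and 2 were higher, against 26.2%. The median difference was -0.52 (values here relative to the mean of the 6 Saline unstressed libraries of both regions), against -0.08 over 7667 genes. At a wider range of 0.7 decades, which admits 66 members, 60 were lower, against 39.2%, and 2 higher, against 28.2%, with a median of -0.76. In neither reading did the 12 NAc libraries lie wholly below the 12 DLS libraries for any member, against 3.57% and 3.81% of all genes.

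The member median of a library ran from -0.42 to 0.22 with a median of -0.28 in the NAc, and from -0.05 to 0.62 with a median of 0.30 in the DLS. Within exposure groups the median NAc minus DLS difference was -0.58 in LPS stressed, -0.67 in LPS unstressed and -0.59 in Saline stressed rats, and -0.23 in Saline unstressed rats. In the controls 26 of 33 members were lower in value in the NAc, against 57.8% of all genes, and the median was the smallest of the 4. The differences within groups were not tested. At 0.7 decades these medians were -0.83, -0.91, -0.85 and -0.33.

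**Figure D4:**
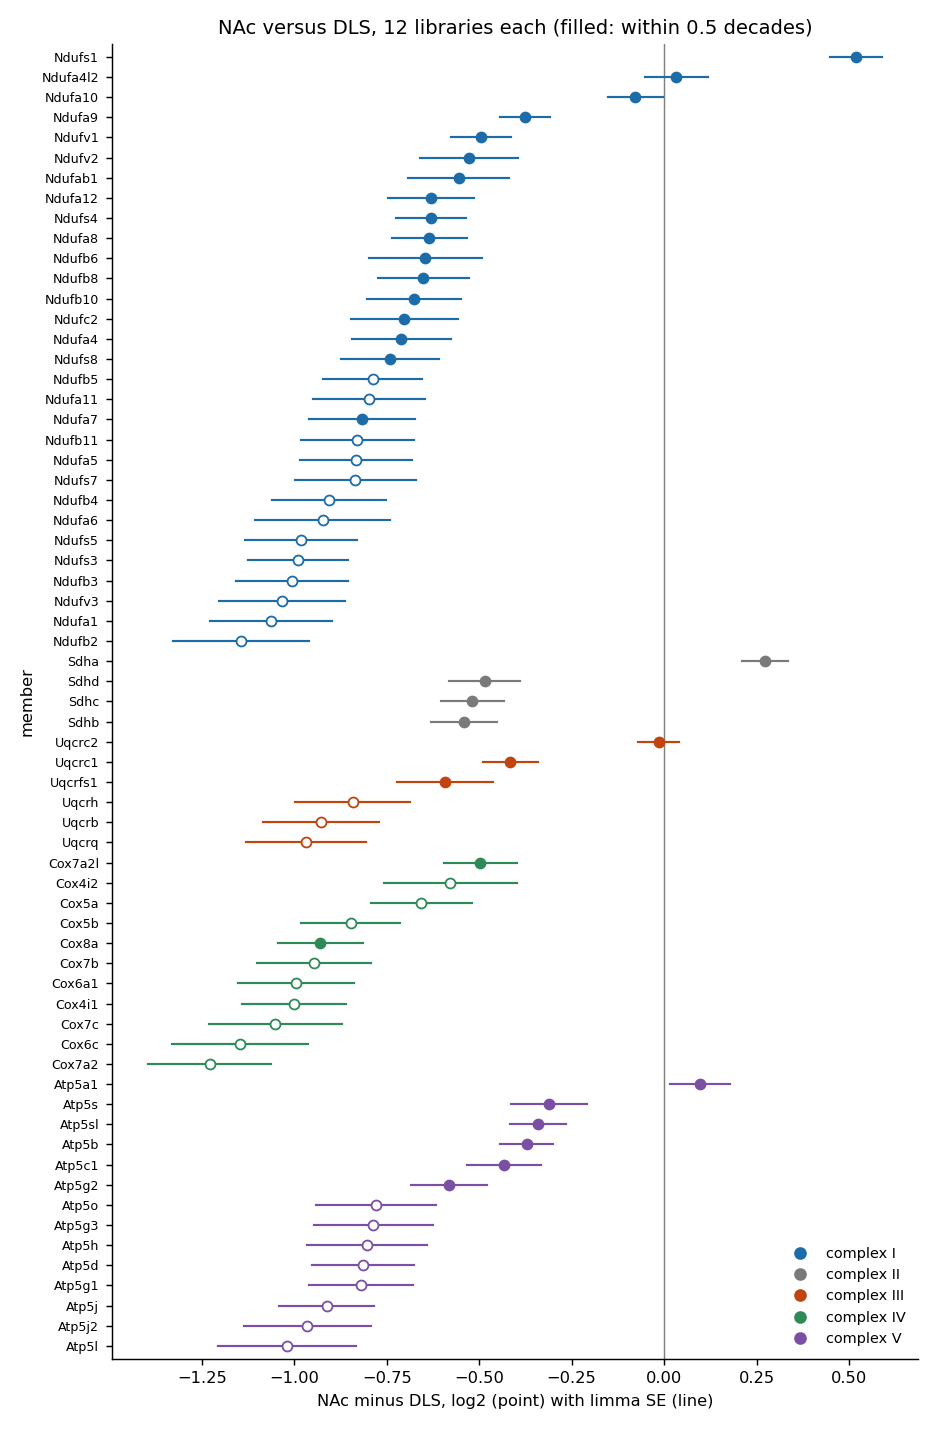
NAc minus DLS log2 differences of members with their standard errors, ordered within complexes. Filled points lie within 0.5 decades over all 24 libraries and open points within 0.7. Nearly all members lie below 0, and Ndufs1 at 0.52 and Sdha at 0.27 lie above it.

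By complex and at 0.5 decades, the medians were -0.63 for complex I (18 genes), -0.50 for complex II (4), -0.42 for complex III (3), -0.71 for complex IV (2) and -0.36 for complex V (6). These medians include genes that are not core structural subunits. They are Cox7a2l (-0.50) beside Cox8a (-0.93) in complex IV, Atp5s (-0.31) and Atp5sl (-0.34) in complex V, and Ndufa4l2 (0.03) in complex I. At 0.7 decades they were -0.71 (31), -0.50 (4), -0.72 (6), -0.95 (11) and -0.78 (14), with all 11 of complex IV lower.

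The 2 genes higher in the NAc were again Ndufs1 and Sdha. Ndufs1 had a lowest, median and highest value of 0.08, 0.20 and 0.27 in the NAc, against -0.73, -0.36 and 0.10 in the DLS, a difference of 0.52 (SE 0.07, adjusted p = 3.12e-06). Sdha had -0.05, 0.08 and 0.21 in the NAc, against -0.46, -0.20 and 0.10 in the DLS, a difference of 0.27 (SE 0.06, adjusted p = 0.00061). For both genes the NAc libraries were tight and the DLS libraries spread downward. The other subunits of complex II went the other way, with Sdhb at -0.54, Sdhc at -0.52 and Sdhd at -0.49, all called lower.

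Atp5a1, Ndufa10, Ndufa4l2 and Uqcrc2 were not called, with differences of 0.10, -0.08, 0.03 and -0.01 and adjusted p-values of 0.292, 0.358, 0.742 and 0.826. In the DLS, these are also among the members with the flattest slopes. The largest differences at 0.5 decades were those of Cox8a (-0.93, SE 0.11, adjusted p = 9.71e-07), Ndufa7 (-0.82) and Ndufs8 (-0.74). At 0.7 decades they were Cox7a2 (-1.23, SE 0.17), Cox6c (-1.15) and Ndufb2 (-1.14), and Cox7a2 had -0.83, -0.52 and 0.27 as lowest, median and highest value in the NAc, against 0.01, 0.84 and 1.46 in the DLS. Each of the 33 members in range at 0.5 decades kept its side of the threshold in all alternatives that could be run for it. Members that enter only at 0.7 decades were not followed singly through the alternatives. The labels number the DLS libraries and the NAc libraries in separate runs, and whether the regions were prepared together is not given, so region and preparation cannot be told apart.

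Other gene lists show what moved beside these genes. Of the cytosolic ribosomal protein genes, 86.8% in the NAc and 100% in the DLS had a slope above 0.5 on the member median. In the DLS their median differences were 0.55 for stress alone (53 of 55 higher in value), 0.35 for LPS alone (55 of 55) and 0.43 for both exposures (54 of 55). In the NAc they were -0.02, -0.16 and -0.25 over 68 genes. Of the 6 libraries with the highest member median, 4 in the NAc and 5 in the DLS were also among the 6 highest for these ribosomal genes. Between regions, only 18 of the 78 in the table were in range in all 24 libraries. All 18 were lower in the NAc, with a median of -0.71. Of all genes, 56.8% to 57.8% were lower in value in the NAc within the exposure groups.

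Mitochondrial ribosomal protein genes, which serve the translation of the subunits encoded in the organelle, had DLS medians of 0.29, 0.25 and 0.20 for stress alone, LPS alone and both exposures, and NAc medians of -0.03, -0.15 and -0.16. Between regions, 37 of 49 were called lower in the NAc, against 39.7% of all genes, and 3 higher, against 26.2%. Assembly factors of the respiratory complexes had DLS medians of 0.23, 0.19 and 0.11, with Cox16 highest for stress alone at 0.74. The citrate cycle median stayed near 0 with 0.05, 0.08 and 0.02, but its genes went both ways. Their slopes on the member median ran from -1.15 to 0.66 in the DLS and from -0.85 to 0.99 in the NAc. Mdh2, malate dehydrogenase, differed by 0.41 (SE 0.16, adjusted p = 0.311) for stress alone. Cs differed by -0.47 (SE 0.32, adjusted p = 0.908) for both exposures. Glycolysis had 0.02, 0.15 and -0.03. By limma none of these lists had a gene past the adjusted threshold in an exposure comparison.

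Of the regulators of mitochondrial biogenesis, 3 of 13 in the NAc and 0 of 13 in the DLS had a slope above 0.5, against 20.8% and 19.9% of all genes. In the DLS, Nfe2l2, an antioxidant response factor, differed by 0.36 and Gabpa, the ETS protein that binds the letters above, by -0.27 for stress alone, and Yy1 by -0.58 for both exposures (adjusted p = 0.325, 0.421 and 0.908). Between regions, NAc minus DLS was -0.56 for Esrra, a nuclear receptor of energy metabolism (adjusted p = 9.94e-07), and 0.44 for Gabpa, the highest value of the list. Gabpa shares its listed locus with Atp5j, so its values are uncertain.

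**Figure D5:**
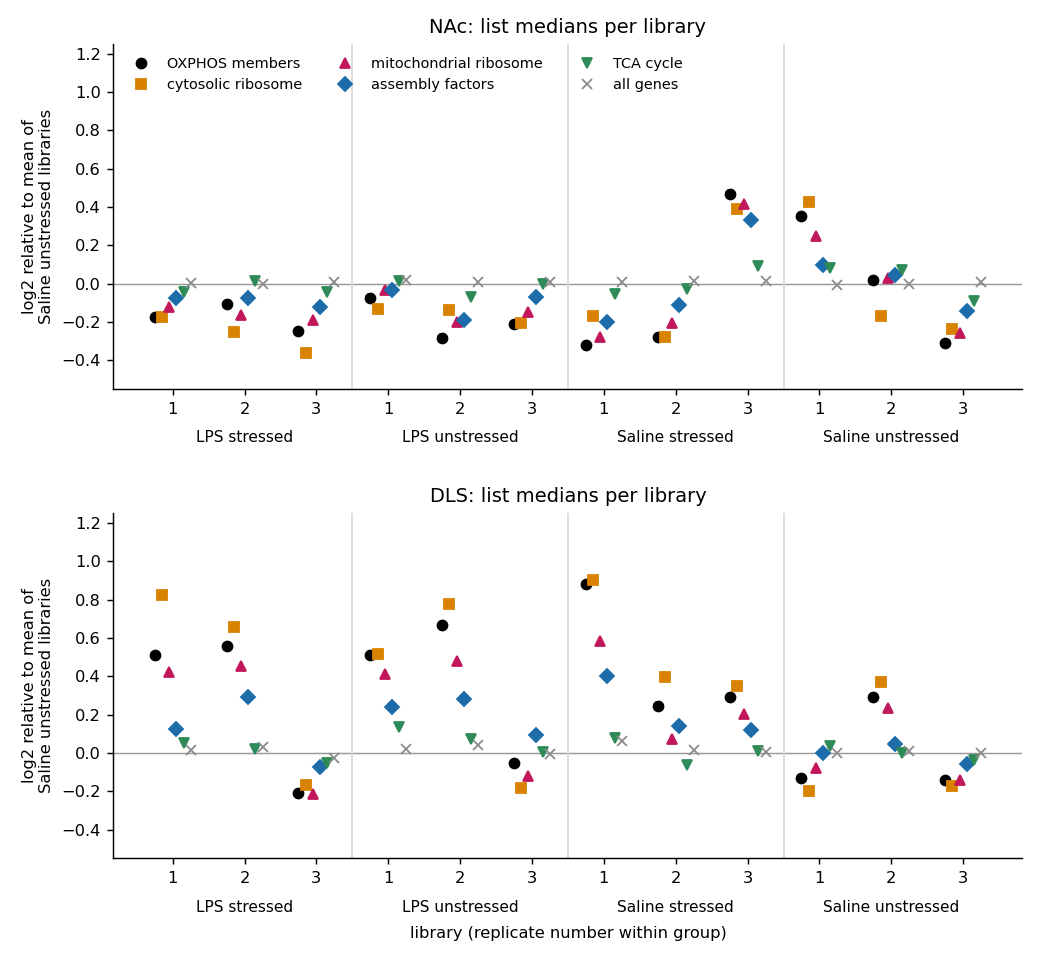
Median log2 value of the members, of companion gene lists and of all genes in every library, NAc above DLS, relative to the Saline unstressed mean of the region. In DLS Saline stressed library 1 and NAc Saline stressed library 3, where the members are highest, both ribosomal lists are high as well. The median of the citrate cycle genes stays near 0 in every library.

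Differences by locus length moved with the block as well. Genes with loci under 5 kb that are neither members nor ribosomal had a DLS median of 0.18 for stress alone, and those over 100 kb had -0.11. The gap between both sets, taken per library, was highest in the same 6 libraries as the member median in each region. It was 0.42 in DLS Saline stressed library 1, 0.42, 0.28 and -0.16 in the LPS stressed and 0.26, 0.35 and -0.09 in the LPS unstressed libraries of the DLS, and 0.43 in NAc Saline stressed library 3. Between regions, short loci had a median of -0.29 and long ones of 0.11. The part of locus length or of RNA quality in the member values was not tested.

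Microglia markers were higher in value in the exposed DLS groups too. Their median over 7 genes stood at 0.52, 0.47 and 0.33 in LPS stressed, 0.41, 1.10 and 0.17 in LPS unstressed, 0.99, 0.77 and 0.17 in Saline stressed, and -0.11, 0.10 and 0.00 in Saline unstressed libraries. All 9 exposed libraries were above the 3 controls, and 6 of the 7 genes had positive differences for each exposure. The exception was P2ry12, a purinergic receptor of microglia, with -0.57 for stress alone, -0.42 for LPS alone and -0.65 for both exposures (unadjusted p = 0.0224 and adjusted p = 0.908 for the last). In the NAc the median differences were 0.08, 0.01 and -0.19 for stress alone, LPS alone and both exposures. In the DLS, C1qa, a complement gene of microglia, differed by 0.92 for stress alone (SE 0.25, adjusted p = 0.294). Astrocyte markers had DLS medians of 0.42, 0.12 and 0.14 for stress alone, LPS alone and both exposures. The part of these cell types in the member values was not tested.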

How the data were processed

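RNA from 24 samples (2 regions, 4 groups each, 3 libraries per group) was used. Per the submitters' processing notes, STAR 2.6.25.17 and Cuffdiff 2.2.1 were used; their steps, build and annotation are unknown (not given in the sources used here). The deposited score per gene and library is an FPKM value, per the file headers, whose decimal separator was lost, so no count or depth can be had. For each gene the log10 mantissas formed a circle of 1 decade, which was cut at the widest gap, and genes above 1 everywhere whose libraries fell within 0.5 decades were used (0.7 and 0.3 as alternatives). With 12 random mantissas, a share of 0.00586 would fall within 0.5 decades. Differences were tested in limma 3.58.1 (R 4.3.3), group means without covariates, 12 libraries per region or all 24, two-sided, with Benjamini-Hochberg adjustment over all genes and a threshold of 0.05. The procedure was tested on simulated data. Members, lists and tests were chosen with earlier results of these data known. Named genes are catalytic core, c ring and isoform genes, and for each comparison those with the highest or lowest differences. Alternatives left out single libraries, changed the range, used array weights, counted Ndufa4 in complex IV, or dropped non-subunit genes. Dropping shared-locus genes was not run. Tables were handled in Python 3.11.15 with pandas 2.3.3, numpy 2.4.6 and scipy 1.17.1, and plots drawn with matplotlib 3.10.9. Promoters came from RefSeq (GRCr8). One member is counted throughout but not drawn or reported singly here.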

Additional observations from a re-analysis of the deposited data

Results flagged for a closer look

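The median over complex V genes, the subunits of ATP synthase, was on opposite sides of the control mean in the 2 regions after prenatal LPS alone. It stood at -0.07, -0.30 and -0.24 in the 3 NAc libraries and at 0.36, 0.67 and 0.03 in the 3 DLS libraries, each relative to the Saline unstressed mean of its region, so that NAc minus DLS was -0.56. The control libraries stood at 0.31, 0.04 and -0.41 in the NAc, which encloses its 3 LPS libraries, and at -0.10, 0.22 and -0.14 in the DLS, which encloses LPS library 3. The NAc difference in the fit, -0.19, was -0.03 without Saline unstressed library 1 and -0.37 without Saline unstressed library 3. It is given here because every library of one region moved one way and every library of the other the opposite way. The difference of this median was not tested, and 1 of 18 medians examined (the members and the 5 complexes in 3 exposures) met this condition. For single members, limma's test of the difference between regions called 0 of 33.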

How the results depend on the processing

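No paired analysis was possible because the replicate numbers follow deposit order and the labels pair no samples. Of 514 values of member medians recomputed under the alternatives for 19 results, 510 moved by less than the spread between replicates, as did 2423 of 2446 medians of complexes. For the members this spread was 0.36 in the DLS and 0.28 in the NAc, larger than several of the medians themselves. A value could therefore change sign and still count as unmoved, so these counts say little about stability. The sign turned in 11 of the 514, all with 1 library left out and for the NAc stress difference, the NAc stress main effect and the NAc interaction, and in 62 of the medians of complexes. With array weights the number of members called was 25, 54 and 48 in the DLS (stress alone, LPS alone, both exposures) and 3 in the NAc (LPS alone), against 0 without. With array weights it was also 23, 26 and 28 for the NAc minus DLS difference of these 3 effects, 4 for that of the stress main effect and 10 for that of the interaction, again against 0, and the median difference for both exposures was -0.57. The weights converged in the DLS fit but not in the NAc fit or that of all 24 libraries. Without one library, in turn, calls stayed at 0 in each exposure comparison. For NAc versus DLS, the median was -0.0463 within 0.3 decades, -0.76 within 0.7 decades and -0.79 over all measured members, against -0.52, and 4 and 62 members were called within 0.3 and 0.7 decades, against 29. Fewer genes enter at 0.3 decades, and those are the ones that varied least. Reading all measured members, and dropping Ndufa4l2, Ndufa10l1 and Cox6c-ps1, were chosen after seeing the data. Pseudocounts and filters on low levels were not run, since levels are unknown. Depth is unknown too, and 3 libraries per group leave standard errors of about 0.28 for a median member in the DLS.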
